A study of Bos taurus with 16 samples.

Results

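ANOS1, GPC1 and SDC1 are 2 carriers of heparan sulfate and 1 matrix protein that binds it, and their RNA was followed across Creb5 knockdown and TGFβ2 treatment. GPC1 encodes glypican-1, which is held at the cell surface by a lipid anchor. SDC1 encodes syndecan-1, which spans the membrane. ANOS1 encodes anosmin-1, a secreted protein that carries no heparan sulfate itself. The genes were chosen by name with their changes in these data already known, as ENSBTAG00000001049 (ANOS1), ENSBTAG00000015996 (GPC1) and ENSBTAG00000011154 (SDC1), and are 3 of 19454 genes in the table. Their values are therefore given as a description, with standard errors and spreads but without p-values.

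Heparan sulfate is a long sugar chain that is built on a core protein in the Golgi and then sulfated. The sulfated chains bind growth factors such as FGFs and help them reach their receptors, and in cartilage they set how far such ligands travel through the matrix. Anosmin-1 is known as the product of the gene altered in X-linked Kallmann syndrome, and it binds heparan sulfate and modulates FGF receptor signaling.

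The libraries were made from superficial zone chondrocytes, the cells at the surface of articular cartilage that secrete lubricin, taken from the knees of 4 calves aged 1 to 2 weeks. The cells received lentivirus with a control hairpin (shScramble) or with 1 hairpin against Creb5 (shCreb5), and all groups were selected in 0.8 µg/ml puromycin for 5 days. They were then held on low attachment plates for 48 h, in medium with 10% serum and TGFα at 100 ng/ml. Condition A had no other factor, and condition AB also had TGFβ2 at 20 ng/ml. Each calf gave 1 library for each of shScramble A, shCreb5 A, shScramble AB and shCreb5 AB, so every group has n = 4 and there are 16 libraries in all. Conditions A and AB of one calf and hairpin share an infection and a selection. Because a single hairpin was used, loss of CREB5 and any other action of that hairpin cannot be told apart.

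Between 14710867 and 21853634 counts were assigned to genes per library. CREB5, the target, was lower with shCreb5 in 4 of 4 calves of each condition. Values are given in CPM, counts scaled to a common library size, as mean ± SD over the calves. CREB5 stood at 94.4 ± 24.3 CPM in the shScramble A group against 65.2 ± 17.9 CPM for shCreb5 A, with a fitted log2 fold change of -0.54 (SE 0.08). The AB groups stood at 70.8 ± 11.8 and 36.3 ± 4.96 CPM, with a fitted value of -0.96 (SE 0.10). Fitted over all 16 libraries, the knockdown effects differed by -0.41 on the log2 scale (SE 0.15), a difference that was not called. With TGFβ2 CREB5 itself was lower in 4 of 4 calves with either hairpin. The fitted values were -0.40 (SE 0.09) in shScramble cells and -0.82 (SE 0.13) in shCreb5 cells. Of 8 chondrocyte markers, PRG4 and COL11A1 could be found by symbol, and their summed level lay between 7850 and 63224 CPM in all libraries. The group median of PRG4 was the higher throughout, from 7212 against 2258 CPM in shCreb5 A to 51537 against 4238 CPM in shScramble AB. The paper also saw Prg4 RNA in mouse synovial membrane, so the sum does not separate chondrocytes from synovial cells. COL2A1, ACAN and SOX9 were not checked here. Markers of other cell types were present too. COL3A1 and THY1, found in fibroblasts and synovial cells, summed to between 2714 and 10456 CPM, and CD14 and CD68 of myeloid cells to between 12.2 and 92.7 CPM. VWF of endothelial cells lay between 2.52 and 19.5 CPM, and CDH1 and KRT18 of epithelial cells summed to between 0.162 and 21.8 CPM. KRT18 was the one of these genes with a library at 0 CPM. Each library is bulk RNA, in which fewer cells of a type and less RNA per cell cannot be told apart.

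ANOS1 differed most of the 3 genes between the hairpins, and was lower with shCreb5. In shScramble cells of condition A it was at 19.1, 61.1, 37.2 and 49.6 CPM in calves 1 to 4. With shCreb5 in the same condition it was at 9.84, 24.2, 11.4 and 8.58 CPM. Each calf was lower with shCreb5, but calf 2 with shCreb5 remained above calf 1 with shScramble, so the groups overlapped. In condition AB, shScramble cells of calves 1 to 4 held 90.2, 80.6, 63.9 and 85.7 CPM. The shCreb5 cells held 32.3, 45.8, 15.0 and 17.1 CPM. Here the groups did not overlap, and calf 2 again kept the most ANOS1 under shCreb5.

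Fitted over the calves, the log2 fold changes of ANOS1 with shCreb5 were -1.63 (SE 0.24) without TGFβ2 and -1.66 (SE 0.24) with it. In linear terms the knockdown cells held 32.3% and 31.6% of the shScramble level. In a joint fit of all 16 libraries, the knockdown effects of the conditions differed by 0.03 on the log2 scale (SE 0.44). That error is wide enough to hold a sizeable difference either way. Taken within calves, the difference ran from -0.53 to 0.52, with an SD of 0.49. The size of the knockdown effect varied among calves. In condition A the log2 ratios of calves 1 to 4 were -0.95, -1.33, -1.70 and -2.52. In condition AB they were -1.48, -0.81, -2.08 and -2.32. Calves 3 and 4 had the lower ratios in both conditions.

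ANOS1 was higher with TGFβ2 than without it in each of 4 calves with either hairpin. The log2 ratios in shScramble cells of calves 1 to 4 were 2.23, 0.40, 0.78 and 0.79, and calf 1, the lowest in condition A, had the largest. The fitted log2 fold change was 1.03 (SE 0.26) in shScramble cells, and it was 0.65 without calf 1. In shCreb5 cells the ratios were 1.70, 0.92, 0.40 and 0.99, with a fitted log2 fold change of 1.01 (SE 0.19). The group means stood in the order shCreb5 A at 13.5 ± 7.24, shCreb5 AB at 27.5 ± 14.4, shScramble A at 41.7 ± 18.0 and shScramble AB at 80.1 ± 11.5 CPM. shScramble AB lay above every library of the other 3 groups. The neighbours shCreb5 AB and shScramble A overlapped, and calf 1 had them in the opposite order to the other calves.

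**Figure D1:**
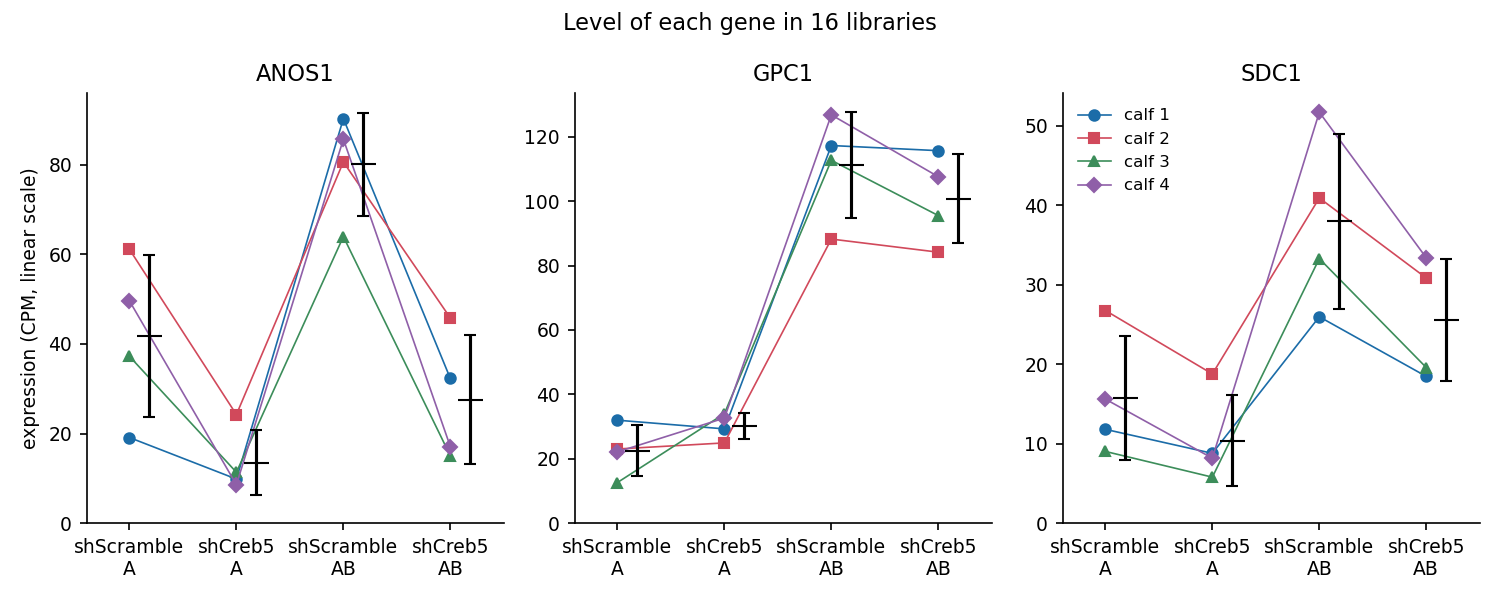
Level of ANOS1, GPC1 and SDC1 in each of 16 libraries, in CPM on a linear scale that differs between panels. Symbols and colours mark the 4 calves, thin lines join the libraries of a calf, and black bars give the mean and SD of each group (n = 4). ANOS1 is lower with shCreb5 in both conditions, with means of 13.5 against 41.7 CPM in condition A and 27.5 against 80.1 CPM in condition AB, while GPC1 separates by condition, with means of 22.4 and 30.2 CPM in condition A and 111 and 101 CPM in condition AB.

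SDC1 was also lower with shCreb5, by a smaller fold. In condition A it was at 11.8, 26.7, 9.02 and 15.6 CPM in shScramble cells of calves 1 to 4. With shCreb5 it was at 8.78, 18.8, 5.78 and 8.17 CPM. Calf 2 was highest and calf 3 lowest with either hairpin, and the range over calves was wider than the difference between the hairpins, so the groups overlapped. In condition AB the shScramble cells held 25.95, 40.9, 33.3 and 51.7 CPM. The shCreb5 cells held 18.5, 30.8, 19.6 and 33.4 CPM. Calf 4 was now highest and calf 1 lowest with either hairpin, and the groups overlapped again.

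Within calves the difference of SDC1 between the hairpins was more even than that of ANOS1. The log2 ratios of calves 1 to 4 were -0.42, -0.51, -0.63 and -0.92 in condition A. In condition AB they were -0.49, -0.41, -0.76 and -0.63. The fitted log2 fold changes were -0.63 (SE 0.12) and -0.57 (SE 0.10), which left 64.8% and 67.2% of the shScramble level. The joint fit put the difference between them at 0.01 on the log2 scale (SE 0.30). Taken within calves, that difference had an SD of 0.19.

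In every calf and with either hairpin, adding TGFβ2 went with more SDC1. In shScramble cells the log2 ratios of calves 1 to 4 were 1.13, 0.61, 1.87 and 1.72, and the fitted value was 1.33 (SE 0.20). In shCreb5 cells they were 1.06, 0.71, 1.74 and 2.02, and the fitted value was 1.37 (SE 0.22). Calves 3 and 4 had larger ratios than calves 1 and 2 with both hairpins. The group means stood in the order shCreb5 A at 10.4 ± 5.74, shScramble A at 15.8 ± 7.78, shCreb5 AB at 25.6 ± 7.64 and shScramble AB at 37.9 ± 11.0 CPM. Each pair of neighbours in that order overlapped, although within each calf the 4 libraries kept this order.

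GPC1 followed TGFβ2. Under shCreb5 it showed no common direction in condition A and was slightly lower in every calf in condition AB. Its level in condition A was 32.0, 23.0, 12.6 and 22.1 CPM in shScramble cells of calves 1 to 4. In shCreb5 cells of condition A it was 29.3, 24.9, 34.0 and 32.6 CPM. Calf 3 went from the lowest to the highest of its group, while calves 1 and 2 barely moved. In condition AB the shScramble cells held 117, 88.2, 113 and 127 CPM. The shCreb5 cells held 116, 84.2, 95.5 and 107.6 CPM. All 8 libraries with TGFβ2 lay above all 8 without it.

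The log2 ratios of GPC1 with shCreb5 in condition A were -0.13, 0.11, 1.42 and 0.56 in calves 1 to 4. The fitted log2 fold change was 0.48 (SE 0.24), and it was 0.18 without calf 3. In condition AB the ratios were -0.02, -0.07, -0.24 and -0.24, each below 0, with a fitted value of -0.14 (SE 0.09). With TGFβ2 the fitted log2 fold change was 2.36 (SE 0.21) in shScramble cells, a 5.12-fold rise, and 1.73 (SE 0.10) in shCreb5 cells, a 3.32-fold rise. The calves ranged from 1.87 to 3.15 in shScramble cells and from 1.49 to 1.98 in shCreb5 cells. The joint fit put the difference of the responses, shCreb5 minus shScramble, at -0.60 on the log2 scale (SE 0.26). The SD of that difference over the calves was 0.78. That difference was -1.66 in calf 3 and -0.79 in calf 4, against -0.18 in calf 2 and 0.11 in calf 1, and it was -0.28 without calf 3.

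**Figure D2:**
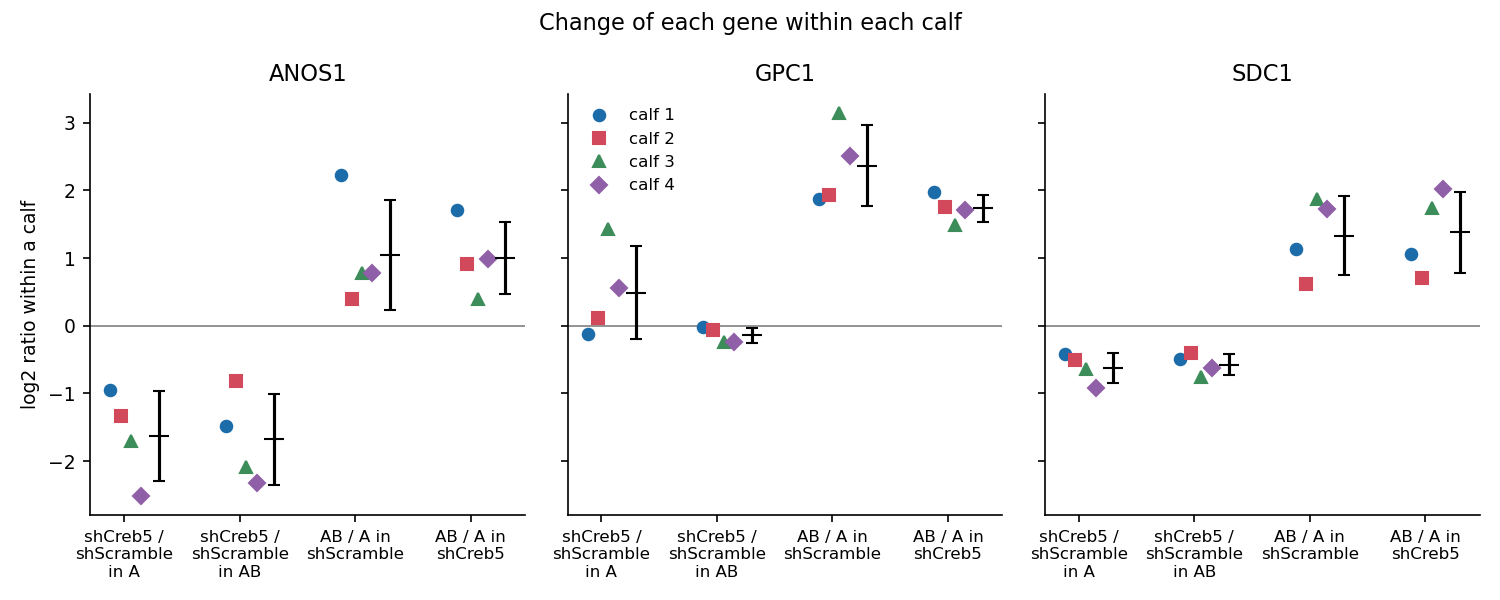
Log2 ratio of ANOS1, GPC1 and SDC1 within each calf, for shCreb5 over shScramble in conditions A and AB and for condition AB over condition A in shScramble and shCreb5 cells. Symbols are the 4 calves and black bars the mean and SD over them (n = 4); the grey line is no change. ANOS1 lies between -2.52 and -0.81 for both knockdown comparisons and SDC1 between -0.92 and -0.41, while GPC1 spans 0 in condition A, and all 3 genes lie above 0 for TGFβ2.

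Calls of the members were made with edgeR's quasi-likelihood test over all genes, blocked by calf and adjusted by Benjamini and Hochberg, at an adjusted p of 0.05. With shCreb5 it called 0 of 3 members in each condition, where the share of all genes called was also 0% (0 of 12922 in condition A and 0 of 12664 in condition AB). There were 1144 and 1078 genes at an unadjusted p under 0.05. CREB5, the target of the hairpin, was not called by edgeR in either condition and was called lower by DESeq2 in both. The lack of an edgeR call with shCreb5 is therefore not read as a lack of change. With no filter on low counts edgeR called ANOS1 lower in condition AB, 1 of 15 genes called lower (0.0807% of 18578). DESeq2's Wald test called ANOS1 and SDC1 lower in both conditions, that is 2 of 3 members, against 0.367% (condition A) and 0.288% (condition AB) of genes called lower. With TGFβ2 edgeR called 3 of 3 members higher in shScramble cells, against 10.7% of all genes tested, and 3 of 3 in shCreb5 cells, against 15.9%. Without the calf block GPC1 kept these calls and ANOS1 and SDC1 lost them, and ANOS1 lost its call in shScramble cells without calf 3 or without calf 4. For the difference of the knockdown effects edgeR called 0 of 3 members and 0 of 13372 genes, with 571 genes at an unadjusted p under 0.05, and DESeq2 called 10 genes (0.0514%), none of them a member. Scaled by library totals alone, a setting added after the data had been seen, the median of all genes moved to -0.18 with TGFβ2 in shScramble cells and -0.17 in shCreb5 cells. Then 841 of 3182 calls in shScramble cells and 1243 of 4650 in shCreb5 cells were higher, against 1378 of 2556 and 2027 of 3884 with TMM scaling. The 3 members remained called higher, with log2 fold changes of 0.86 and 0.85 for ANOS1, 1.15 and 1.21 for SDC1 and 2.18 and 1.57 for GPC1. Since the members were picked with these contrasts known, nothing is read from the counts.

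A fit of all 16 libraries that averaged the knockdown over both conditions was added after the data had been seen. It gave ANOS1 a log2 fold change of -1.67 (SE 0.23), SDC1 -0.60 (SE 0.15) and GPC1 0.15 (SE 0.13). The fit counts conditions A and AB of a calf as separate, although they share an infection. Its standard errors and calls, DESeq2's included, do not allow for knockdown effects that differ between calves. Averaged within each calf, the log2 ratio of ANOS1 was -1.65 ± 0.62 (mean ± SD, n = 4). That of SDC1 was -0.60 ± 0.17 and that of GPC1 0.18 ± 0.29. The edgeR fit called 1 of 3 members lower, ANOS1, against 0.0897% of genes (12 of 13372). That call was lost without calf 3 or without calf 4. DESeq2 called ANOS1 and SDC1 lower, 2 of 3 members, against 0.749% of genes. GPC1 was at 0.03 without calf 3.

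The groups of ANOS1 in condition AB did not overlap, with shCreb5 lower, which held for 0.766% of genes tested. With TGFβ2, the groups of ANOS1 and GPC1 in shScramble cells did not overlap, against 4.99% of genes that were higher without overlap. In shCreb5 cells this held for GPC1, against 6.29%. ANOS1 and SDC1 were lower with shCreb5 in 4 of 4 calves of each condition, which was so for 8.51% of genes without TGFβ2 and 9.18% with it. A rise with TGFβ2 in 4 of 4 calves, seen for all 3 members, was seen for 21% of genes in shScramble cells and 25.2% in shCreb5 cells.

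The members differed in the size of their changes within the same libraries. Under shCreb5 the log2 ratio of ANOS1 lay below that of SDC1 in every calf, by differences that ran from -1.59 to -0.53 in condition A and from -1.69 to -0.41 in condition AB. The difference of ANOS1 from GPC1 was -2.12 ± 1.16 and -1.53 ± 0.58 (mean ± SD, n = 4), below 0 in 4 of 4 calves. GPC1 lay above SDC1 by 1.11 ± 0.80 and 0.43 ± 0.08, in 4 of 4 calves of each condition. For TGFβ2 the rise of GPC1 was larger than that of SDC1 in 4 of 4 calves of shScramble cells (1.03 ± 0.31) and in 2 of 4 of shCreb5 cells (0.35 ± 0.73). ANOS1 and SDC1 did not separate in the TGFβ2 response, where ANOS1 minus SDC1 ran from -1.09 to 1.10 in shScramble cells and from -1.34 to 0.64 in shCreb5 cells.

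A split of the sum of squares of log2 CPM over the 16 libraries set these patterns side by side. For ANOS1 the hairpin took 54.8%, TGFβ2 21.2% and the calf 11.1%. For GPC1 TGFβ2 took 90.1%, and the hairpin 0.661%. For SDC1 TGFβ2 took 57.9%, the calf 22.1% and the hairpin 11.2%. The interaction of hairpin and TGFβ2 took 0.0117% for ANOS1, 0.0194% for SDC1 and 2.15% for GPC1. Over the 13372 genes tested in all libraries the medians were 46.3% for the calf, 11.7% for TGFβ2, 2.38% for the hairpin and 1.17% for the interaction.

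**Figure D3:**
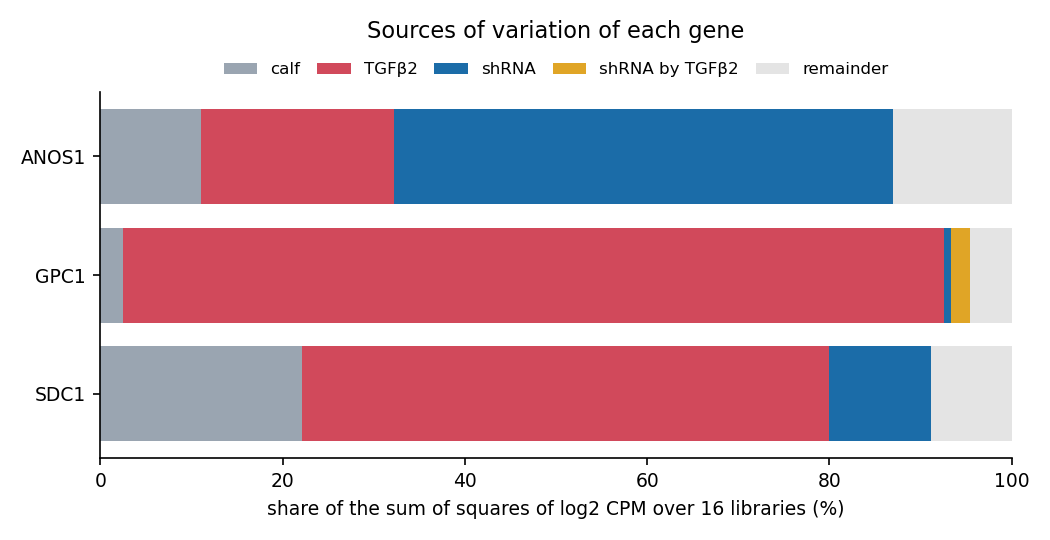
Share of the sum of squares of log2 CPM over 16 libraries, in percent, that goes to the calf, TGFβ2, the shRNA, their interaction and the remainder, for ANOS1, GPC1 and SDC1. The shRNA takes the longest bar for ANOS1 (54.8%), and TGFβ2 the longest for GPC1 (90.1%) and SDC1 (57.9%).

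Markers of cell type moved in some of the same comparisons. With TGFβ2, PRG4, which encodes lubricin, rose by 1.94 on the log2 scale in shScramble cells (edgeR, adjusted p = 0.00113) and by 1.91 in shCreb5 cells (adjusted p = 0.00126). DESeq2 did not call PRG4 in shScramble cells (DESeq2 adjusted p = 0.0883). COL11A1, a cartilage collagen chain, had 0.47 in shScramble cells (adjusted p = 0.3004) and rose by 1.11 in shCreb5 cells (adjusted p = 0.0101). COL3A1 rose by 1.18 (adjusted p = 0.00356) and 1.17 (adjusted p = 0.000823), and THY1 by 1.43 (adjusted p = 0.000330) and 1.08 (adjusted p = 0.00118). In shScramble cells COL3A1 and THY1 together went from 3192 to 5444 CPM in condition A to 7865 to 10075 CPM in condition AB. In shCreb5 cells they went from 2714 to 4335 CPM to 5024 to 10456 CPM. VWF had log2 fold changes of -0.89 and -1.60 (adjusted p = 0.00773 and 0.00201). Of the myeloid markers, CD68 had -0.90 and -1.80 (adjusted p = 0.0194 and 0.00423), and CD14 had 0.07 and -0.38 and did not pass (adjusted p = 0.836 and 0.122). Of the epithelial markers, KRT18 had -2.90 and -2.40 (adjusted p = 0.00339 and 0.0287), and CDH1, tested with TGFβ2 in shCreb5 cells alone, had -1.75 (adjusted p = 0.0602). The call of CD68 in shScramble cells and that of KRT18 in shCreb5 cells were lost without calf 3 or without calf 4, and the latter value of KRT18 was -4.06 without calf 1. In shCreb5 cells CD14 passed without calf 2, and CDH1 without calf 1 or without calf 2.

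With shCreb5, none of the marker genes tested passed edgeR's test. PRG4 had log2 fold changes of -0.63 in condition A, lower in 4 of 4 calves, and -0.65 in condition AB, lower in 3 of 4. DESeq2 called it lower in condition A (DESeq2 adjusted p = 8.76e-07) and not in condition AB (0.317). THY1 had 1.08 and 0.72, and DESeq2 called it higher in condition A (DESeq2 adjusted p = 0.00711). In condition A VWF (0.72), CD68 (0.86) and CDH1 (1.81) were also higher with shCreb5 in 4 of 4 calves. The share of all genes tested was 9.77%. CDH1 was near the floor there, at 0.708 ± 0.588 CPM with shScramble and 3.84 ± 5.69 CPM with shCreb5. Markers listed beside CDH1, CD68 and THY1 did not follow: KRT18 had -1.03, CD14 0.08 and COL3A1 -0.27. In condition AB COL11A1 (0.34) was higher in 4 of 4 calves, against 9.28% of genes. There CD14 (-0.38) was lower in 4 of 4, against 9.18%. The part of these shifts in the members' values was not tested.

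Genes with the most similar course were sought by Pearson's correlation of log2 CPM after each calf's mean was taken out, over 16 libraries that share their calves, doses and depth. Of 13372 genes, 3114 had a symbol. ANOS1 was closest to TGFBR1, the type I receptor for TGFβ (r = 0.965), followed by NUBP2, which acts in iron-sulfur cluster assembly (r = 0.913), and ADARB1, an RNA-editing deaminase (r = 0.894). These were also its 3 closest of all genes, named or not. TGFBR1 had log2 fold changes of -0.68 and -0.68 with shCreb5 and 0.38 and 0.38 with TGFβ2, smaller than those of ANOS1 and of the same signs.

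SDC1 was closest to ITGA2, the collagen-binding integrin subunit α2 (r = 0.987), then to CENPT and TACC3, which act at the kinetochore and the mitotic spindle (r = 0.967 for each). ITGA2 changed by -0.59 and -0.44 with shCreb5 and by 1.27 and 1.40 with TGFβ2. GPC1 was closest, among genes with a symbol, to TSKU, a small leucine-rich proteoglycan family member (r = 0.980), GALNT15, which starts O-linked sugar chains (r = 0.966), and MRC2, an endocytic collagen receptor (r = 0.965). They ranked 2, 11 and 12 among all genes, so several genes without a symbol at hand were closer. Between the members r was 0.814 for GPC1 and SDC1, 0.725 for ANOS1 and SDC1 and 0.384 for ANOS1 and GPC1.

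Other genes of the heparan sulfate and FGF system were taken from 5 lists of core proteins, chain synthesis, sulfation, remodelling, and FGF ligands and receptors. Of 58 listed genes 18 (31%) could be matched to an identifier, GPC1 and SDC1 among them. The matches came from tables sorted by the knockdown, so no statement is made on the system as a whole. The 16 that are not members passed the filter on low counts in every comparison. With shCreb5 edgeR called 0 of 16 in each condition. Their median log2 fold changes were -0.22 and -0.31, beside -0.000266 and -0.00302 over all genes. Since the matching depended on the knockdown, all genes are not a like background for these medians. The lists differed in sign. Medians were 0.27 and 0.23 for core proteins, -0.66 and -0.53 for sulfation and -0.51 and -0.42 for FGF genes. Those of remodelling were -0.08 and -0.26, and those of chain synthesis -0.05 and 0.01. DESeq2 called 1 gene, FGF2, a ligand whose signaling needs heparan sulfate, as lower in condition A (DESeq2 adjusted p = 0.0313), where edgeR's log2 fold change was -0.74 (SE 0.19) and 4 of 4 calves were lower.

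With TGFβ2, 3 of the 16 rose and 1 fell in shScramble cells, and 5 rose and 2 fell in shCreb5 cells. Over all genes tested 10.7% rose and 9.15% fell in shScramble cells, and 15.9% rose and 14.5% fell in shCreb5 cells. The median log2 fold changes of the 16 were 0.19 and 0.10, beside -0.00500 and -0.00567 over all genes. Among core proteins, GPC4, another glypican, rose with both hairpins, from 11.1 ± 3.52 to 17.1 ± 3.502 CPM in shScramble cells and from 11.5 ± 1.92 to 22.9 ± 5.79 CPM in shCreb5 cells. The log2 fold changes were 0.65 (SE 0.12, adjusted p = 0.00727) and 0.97 (SE 0.13, adjusted p = 0.00222). COL18A1, a basement membrane collagen with heparan sulfate chains, rose in shCreb5 cells (1.141, SE 0.20, adjusted p = 0.00509). Its level there was low and uneven among calves, from 4.82 ± 4.76 to 10.3 ± 9.03 CPM. In shScramble cells COL18A1 went from 3.99 ± 5.09 to 6.52 ± 6.54 CPM. The log2 fold change there was 0.86 (SE 0.29), not called by edgeR (adjusted p = 0.0745) but called by DESeq2 (DESeq2 adjusted p = 0.0495). TGFBR3, or betaglycan, a TGFβ co-receptor, fell from 489 ± 51.5 to 359 ± 76.8 CPM in shScramble cells (-0.46, SE 0.12, adjusted p = 0.0342) and from 555 ± 105 to 307 ± 95.3 CPM in shCreb5 cells (-0.89, SE 0.13, adjusted p = 0.00274). HSPG2, or perlecan, had 0.35 (SE 0.16) and 0.02 (SE 0.15) and did not pass.

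Among the enzymes, in shScramble cells HS3ST1, a 3-O-sulfotransferase, rose by 0.55 (SE 0.13, adjusted p = 0.0181) and SULF1, an extracellular 6-O-endosulfatase, by 0.62 (SE 0.15, adjusted p = 0.0270). In shCreb5 cells SULF1 had -0.01 (SE 0.13), and the difference between the hairpins did not pass (-0.70, SE 0.29, adjusted p = 0.961). There SULF2, the related sulfatase, rose by 0.53 (SE 0.14, adjusted p = 0.0217), EXTL2, a glycosyltransferase, by 0.58 (SE 0.16, adjusted p = 0.0282) and FGF2 by 0.42 (SE 0.13, adjusted p = 0.0455). NDST1, the N-deacetylase and N-sulfotransferase that begins sulfation, fell by 0.40 (SE 0.11, adjusted p = 0.0296). Only GPC4 of the 4 calls in shScramble cells, and GPC4, COL18A1 and TGFBR3 of the 7 in shCreb5 cells, held whichever calf was left out, and none of the 11 held without the calf block. The calls of HS3ST1, EXTL2, NDST1 and FGF2 were lost without calf 1, 3 or 4, those of TGFBR3 in shScramble cells and SULF1 without calf 1, 2 or 4, and that of SULF2 without calf 1 or 3. Scaled by library totals alone, EXTL2, SULF2 and FGF2 were no longer called. In one fit of all 16 libraries HS3ST1 (adjusted p = 0.258) and FGF2 (adjusted p = 0.177) were not called, and FGF2 missed the threshold with at least 10 counts in every library (adjusted p = 0.0510). For each of these genes the difference between the hairpins in the response to TGFβ2 missed the threshold, with edgeR's adjusted p at 0.961 or above.

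**Figure D4:**
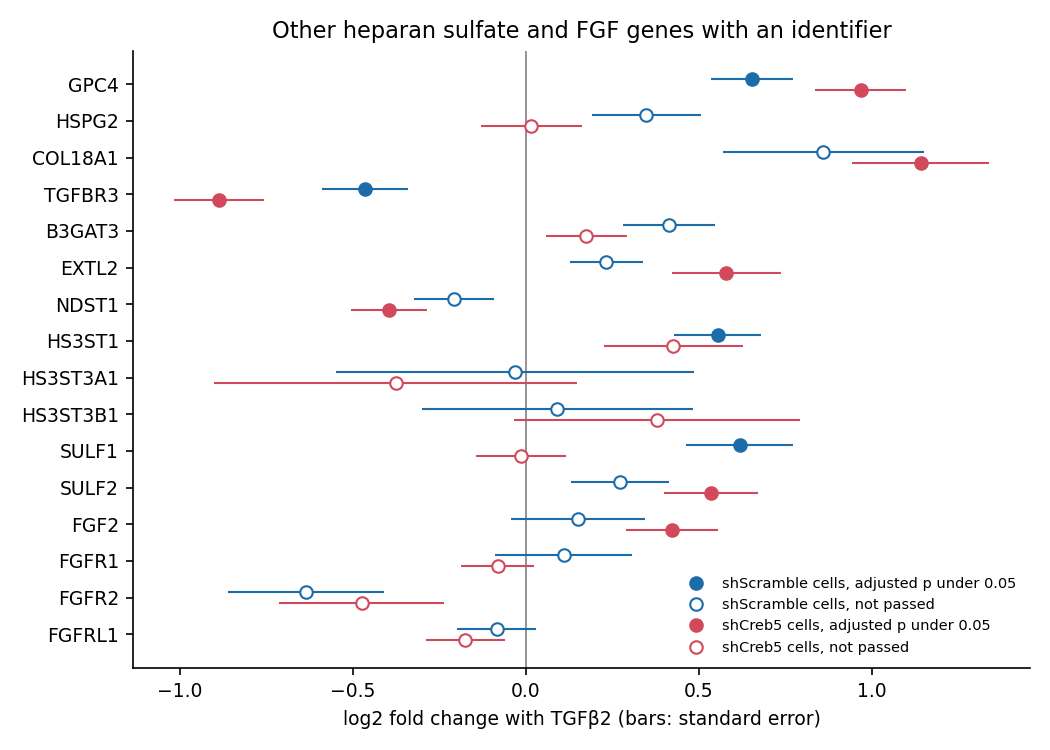
Log2 fold change with TGFβ2 of the 16 other heparan sulfate and FGF genes that had an identifier, in shScramble (blue) and shCreb5 (red) cells; bars are standard errors and filled points have an adjusted p under 0.05 (edgeR). GPC4 is higher with both hairpins (0.65 and 0.97) and TGFBR3 lower with both (-0.46 and -0.89), against 2.36 and 1.73 for GPC1 itself.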

How the data were processed

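Bulk RNA was sequenced from superficial zone chondrocytes of 4 calves. The authors quantified the reads with Salmon on the bovine UMD 3.1 reference, combined transcripts per gene with tximport and deposited the estimated counts, whole numbers without any scaling. Which libraries had lower RNA integrity is not given in the sources used here. Groups and calves were taken from the labels.

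Genes passing edgeR's filterByExpr were scaled by TMM and tested in edgeR 4.0.16 (R 4.3.3) by its quasi-likelihood method, blocked by calf. Adjusted p-values are Benjamini-Hochberg values over the whole table. A gene was called at an adjusted p under 0.05. CPM used TMM library sizes, and log2 CPM a prior count of 2. Comparisons within a condition or hairpin used 8 libraries, and the difference of knockdown effects all 16. Standard errors were derived from the log2 fold change and the F statistic of the quasi-likelihood test. The joint fit had the calf as a block and no term for responses that differ between calves. Replicate numbers pair the libraries by calf: deviations from group means correlated at a median r of 0.670 between libraries of the same calf (24 pairs) and -0.234 between calves (72 pairs). The ranges overlapped, at 0.132 to 0.837 and -0.516 to 0.204. Subtracting group means itself pushes r between calves below 0. In the 24 pairs of libraries checked for copies, neither was a copy of the other. DESeq2 1.42.0, limma-voom (limma 3.58.1) and the settings in the closing section were alternatives. The edgeR method was also run on simulated counts drawn without a calf effect, so that run does not cover the differences between calves.

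The members and gene lists were chosen with earlier results of these data known. The genes named are the members, CREB5, list genes called in a comparison (at most 8 in each direction), and the 3 genes with a symbol most correlated with each member. HSPG2, the marker genes, SULF1 in shCreb5 cells and the alternatives on library totals and on the averaged knockdown were added after the values were seen. Symbols for 3139 genes came from the first 1998 lines of each of the study's supplementary gene tables. They matched 6 of 14 core proteins, 2 of 12 chain synthesis genes, 4 of 16 sulfation genes, 2 of 5 remodelling genes, 4 of 11 FGF genes, and 2 of 8 chondrocyte, 2 of 5 fibroblast, 1 of 4 endothelial, 2 of 4 myeloid and 2 of 4 epithelial markers. Gene lengths and positions were not used here.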

Additional observations from a re-analysis of the deposited data

How the results depend on the processing

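The members' fold changes kept their sign in 188 of 192 values under the alternatives. The exceptions were differences of knockdown effects near 0, of ANOS1 and SDC1. All 192 stayed within 1 SD over calves of the reported value, a bound that could hardly be crossed. Leaving out 1 of 4 calves can scarcely move a mean that far, and the other settings reuse the same counts. Nothing is read from that bound. Counts of genes called moved more. DESeq2 called 79 genes with shCreb5 in condition A, 54 in condition AB and 10 for the difference of the knockdown effects, against 0 each with edgeR, and 242 against 14 for the averaged knockdown. In condition AB, limma-voom called 1, no filter on low counts 17 and one fit of all 16 libraries 6. With no replicate block, the TGFβ2 comparisons called 202 genes in shScramble cells and 194 in shCreb5 cells, against 2556 and 3884 with the calf paired, and 0 listed heparan sulfate genes in each, against 4 and 7. Among those genes DESeq2 called 1 with shCreb5 in condition A, and without a filter 7 were called with TGFβ2 in shScramble cells. With each calf left out in turn, calls ranged from 0 to 1 and from 0 to 2 with shCreb5 in conditions A and AB (1 without calf 2, 2 without calf 1), and from 0 to 154 for the averaged knockdown (0 without calf 3, 154 without calf 1, 9 and 3 without calves 2 and 4). With TGFβ2 they ranged from 1366 (without calf 3) to 1926 in shScramble cells and from 1962 (without calf 4; 2408 without calf 3) to 3829 in shCreb5 cells. Listed genes called then ranged from 2 to 3 and from 3 to 8. The cause of these shifts was not tested. The members had between 107 and 2481 counts per library.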
